A study of Homo sapiens with 6 samples.

Results

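The ninjurins and gasdermins are the genes of plasma membrane pores and rupture, and the rows of *NINJ1*, *NINJ2*, *GSDMD*, *GSDME* and *GSDMB* were taken from the deposited count table by their symbols, which gave 5 of its 60663 genes. Gasdermins are cut by proteases of inflammation and apoptosis, and the freed amino-terminal part forms pores in the plasma membrane, the step that defines pyroptosis. NINJ1 is a small membrane protein that clusters in dying cells and breaks the membrane open, so that large molecules leak out. NINJ2 is its close relative, first known, like NINJ1, from injured nerves, and is not known to rupture membranes by itself.

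The libraries came from CCD18Co, an established line of fibroblasts of normal human colon, transfected for 6 h with siRNA against *LTBP2* (siLTBP2) or with a non-targeting siRNA pool (siNT), both with a lipid reagent, and frozen 48 h later. There were 3 libraries per group, numbered 1 to 3, and nothing in the labels says that they were separate cultures, so the spread between them may be technical. With 1 cell line and 1 siRNA reagent against *LTBP2*, the loss of *LTBP2* and any other action of that reagent cannot be told apart. The comparison asked what silencing *LTBP2*, an extracellular matrix protein, does to fibroblast transcripts.

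*NINJ1* was picked because it was known to be among the strongest falls in siLTBP2, so the siLTBP2 and siNT values of all 5 genes are a description here and are given with no p-value. *NINJ1* kept 18.9% of its control level in siLTBP2, whereas *GSDMD*, *GSDME* and *GSDMB* differed far less between the groups and *NINJ2* was at the limit of detection in both. Values are in CPM, counts scaled to a common library size with TMM factors, and log2 fold changes with their standard errors (SE) are siLTBP2 against siNT from edgeR. A gene is called changed at a Benjamini-Hochberg adjusted p below 0.05 over all 16920 genes tested, and deregulated, the study's criterion, at an adjusted p below 0.01 with a fold change above 2.

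Each library held between 44663424 and 53576899 counts, of which between 1.80% and 3.16% lay on mitochondrial genes. *LTBP2* itself had 23.1 ± 1.89 CPM without silencing and 7.03 ± 1.39 CPM with it (SD, n = 3), or 30.5% of the control level. The libraries carried the fibroblast markers, with 10 of 10 listed genes tested and *VIM* and *COL1A1* at 4871 and 2278 CPM in siNT. *PDGFRB*, a growth factor receptor, was the 1 of the 10 called changed, and fell from 168 ± 9.69 to 110 ± 13.3 CPM (SD, n = 3; log2 fold change -0.60, adjusted p = 0.0025). One library stood apart: siLTBP2 replicate 2 held 156 counts of *CTSG*, 43 of *ELANE*, 89 of *AZU1* and 87 of *PRTN3*, proteins of neutrophil granules, against at most 5 of any of them in the other 5 libraries. *AZU1* and *PRTN3* were looked up after the values of *CTSG* and *ELANE* had been seen. *MPO*, another granule gene, had 0 counts in all 6 libraries, and *PTPRC*, the pan-leukocyte marker CD45, had 8 counts in that library and at most 1 in the others. For the 4 ninjurin and gasdermin genes tested, values without that library are given below, and list genes that lose their call without it are named.

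*NINJ1* (ENSG00000131669) is a minus-strand gene of chromosome 9 (GRCh38, 93121496 to 93134251), and no other gene in the table overlaps it. It had 2923, 2510 and 3372 counts in siNT replicates 1 to 3 and 434, 583 and 585 in siLTBP2 replicates 1 to 3. After scaling these were 63.2, 50.8 and 62.5 CPM in siNT and 9.96, 12.3 and 11.1 CPM in siLTBP2. The groups were far apart, as the highest siLTBP2 library was well below the lowest siNT library, siNT replicate 2. The siNT mean of 58.9 ± 6.95 CPM compared with an siLTBP2 mean of 11.1 ± 1.19 CPM (SD, n = 3). The log2 fold change was -2.40 (SE 0.12), or 5.29-fold lower, which ranked 9 from the lowest of all genes tested and 5 among the 12982 with a mean of at least 1 CPM. Without siLTBP2 replicate 2 it was -2.49. In bulk RNA, fewer transcripts per cell and fewer cells that express the gene cannot be told apart.

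**Figure D1:**
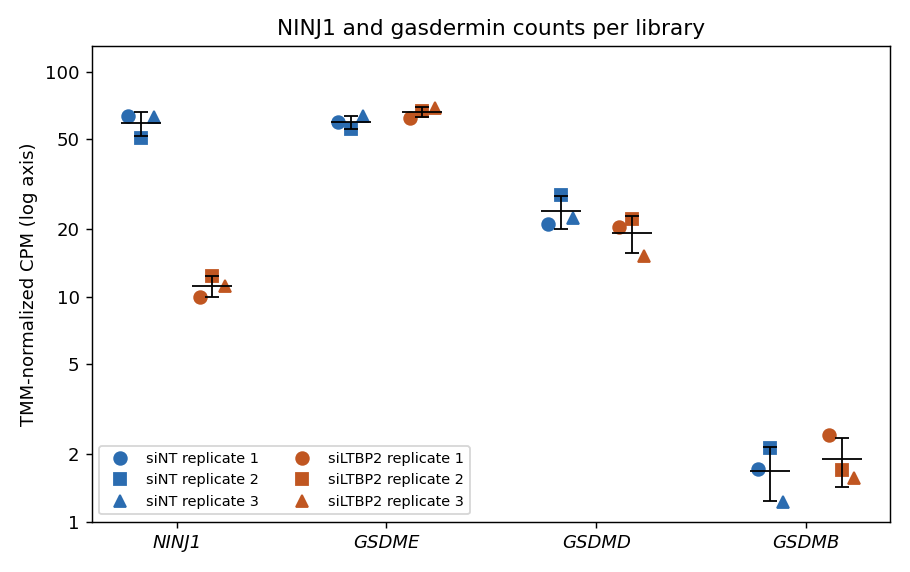
TMM-normalized CPM (log axis) of *NINJ1*, *GSDME*, *GSDMD* and *GSDMB* in each of 3 siNT (blue) and 3 siLTBP2 (orange) libraries, with the mean and SD of each group in black. *NINJ1* lies between 50.8 and 63.2 CPM in siNT and between 9.96 and 12.3 CPM in siLTBP2, while the groups overlap for the 3 gasdermins. *NINJ2*, with 1 count in each group, is not drawn.

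The canonical *NINJ1* transcript has 4 exons and 1237 bases, with a 3′ UTR of 744 bases. It holds 1 copy of the word GCACCCA, which was known from earlier results of these data to mark genes that were lower in siLTBP2. Searched on the transcript strand only, the word occurred in the 3′ UTR of 10.8% of 19215 canonical transcripts and in those of 1455 of the 12314 tested genes with a 3′ UTR. The median of their log2 fold changes was -0.15 and that of genes without the word 0.02, and *NINJ1* ranked 3 from the lowest among the carriers. Both the word and *NINJ1* were taken from this same comparison, so neither the medians nor that rank is an independent result. Length of the 3′ UTR was not taken into account. Of the 5 ninjurin and gasdermin genes, *NINJ1* alone carried the word in the 3′ UTR, and *GSDMD* carried 1 copy in its coding sequence. The *NINJ1* site is shown because *LTBP2*, the siRNA target, also holds the word, 3 times in its coding sequence and once in its 3′ UTR. Sites of *PPT1* and *PEPD* were added for their profile like that of *NINJ1*, and that of *CHMP3* as a list gene that fell. All 3 genes were thus picked for being lower in siLTBP2, and carriers that did not fall are not shown. Each site shown is written 5′ to 3′ on the transcript strand, from GENCODE 44 on GRCh38, with the word in capitals and 11 bases on each side.
*NINJ1* 3′ UTR, chr9:93121536-93121564, minus strand: cgggggtcccaGCACCCActtttctaatc
*LTBP2* 3′ UTR, chr14:74500044-74500072, minus strand: catgggatacaGCACCCAtctacaaagac
*PPT1* 3′ UTR, chr1:40073461-40073489, minus strand: ttgcttctgcaGCACCCActttgtctcct
*PPT1* 3′ UTR, chr1:40073400-40073428, minus strand: ggagggaagtaGCACCCAaattaagttgc
*PEPD* 3′ UTR, chr19:33387230-33387258, minus strand: agcgagagacgGCACCCAgaatcagatcc
*CHMP3* 3′ UTR, chr2:86505111-86505139, minus strand: cattgcaagttGCACCCAgatgagacagc
*PPT1*, *PEPD* and *CHMP3* are described with their values below. Counting the 7 bases of the word itself, the *NINJ1* site shared 9 bases in a row with the *LTBP2* 3′ UTR site and 13 with the first *PPT1* site. It shared 8 with the other *PPT1* site, 7 each with those of *PEPD* and *CHMP3*, and from 7 to 9 with the *LTBP2* coding sites. How often such runs occur between sites of other carriers was not counted, so nothing is read from these lengths. Over its whole length, the longest run that the *NINJ1* transcript shared with the *LTBP2* transcript was 13 bases, and 56.2% of canonical transcripts shared a run at least as long. For *GSDMD* it was 16 bases, reached by 2.56% of transcripts, and for *GSDME* 14 bases, reached by 25.0%. Whether the siRNA acts on these sites was not tested.

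*NINJ2* (ENSG00000171840), on the minus strand of chromosome 12 from 564296 to 663589, was all but absent from these libraries. It had 1 count in siNT replicate 1 and 1 in siLTBP2 replicate 2, and 0 in the other 4. It did not pass the low-count filter, so no fold change is given, and a difference between the groups was not detectable at this depth. Per kilobase of exon, *NINJ1* had 6283 times the counts of *NINJ2* over the siNT libraries, with a 95% exact interval from 1127 to 248200 that covers counting error only. The antisense gene *NINJ2-AS1* overlaps *NINJ2* over 32732 bases on the other strand. It had 142 counts in siNT and 96 in siLTBP2, with a log2 fold change of -0.50 (adjusted p = 0.21), and its counts and those of *NINJ2* are uncertain, as the sources used here do not say how HTSeq treated strand.

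*GSDMD* (ENSG00000104518, chromosome 8, plus strand, 143553207 to 143563062) encodes the gasdermin cut by the inflammatory caspases. It was at 21.1, 28.4 and 22.4 CPM in siNT and at 20.3, 22.1 and 15.2 CPM in siLTBP2. The groups overlapped, with siNT replicate 2 the highest and siLTBP2 replicate 3 the lowest library. The means were 24.0 ± 3.91 and 19.2 ± 3.59 CPM (SD, n = 3), a log2 fold change of -0.32 (SE 0.16). Those 2 libraries moved it most, as it was -0.17 without siLTBP2 replicate 3 and -0.18 without siNT replicate 2. It was -0.44 without siLTBP2 replicate 2.

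*GSDME* (ENSG00000105928, chromosome 7, minus strand, 24698355 to 24757940) encodes a gasdermin that is cut during apoptosis and had the most counts of the gasdermins. It was at 59.9, 55.4 and 63.3 CPM in siNT and at 62.4, 67.1 and 69.2 CPM in siLTBP2. The groups overlapped, with siLTBP2 replicate 1 below siNT replicate 3. The means were 59.5 ± 3.97 and 66.2 ± 3.50 CPM (SD, n = 3), with a log2 fold change of 0.15 (SE 0.09) that was 0.14 without siLTBP2 replicate 2.

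*GSDMB* (ENSG00000073605, chromosome 17, minus strand, 39904595 to 39919854) encodes a gasdermin that granzyme A cuts. It had few counts, with 79, 105 and 66 in siNT and 106, 80 and 82 in siLTBP2. These were 1.71, 2.13 and 1.22 CPM and 2.43, 1.69 and 1.56 CPM, so that the groups overlapped, with siNT replicate 3 the lowest and siLTBP2 replicate 1 the highest library. The log2 fold change was 0.17 (SE 0.26) and turned to -0.05 without siLTBP2 replicate 1 and to -0.02 without siNT replicate 3. It was 0.23 without siLTBP2 replicate 2. Of the 4 ninjurin and gasdermin genes tested, 1 was called changed, *NINJ1*, and 1 was deregulated, where 19.3% of all genes tested were changed and 2.57% were deregulated (1.29% higher and 1.27% lower in siLTBP2). As the genes were chosen on this comparison, nothing is read from that count.

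Levels of different genes were compared per length, as TPM, the share of all transcripts after division by the length of the union of each gene's exons. In siNT, *NINJ1* was the highest, at 85.8 ± 10.9 TPM (SD, n = 3), and its lowest library, at 73.8 TPM, was above every library of the gasdermins. *GSDME* followed at 26.3 ± 1.65 TPM and *GSDMD* at 17.9 ± 2.83 TPM, and their libraries did not overlap, with a lowest *GSDME* library of 24.4 TPM and a highest *GSDMD* library of 21.1 TPM. *GSDMB* was at 1.09 ± 0.30 TPM. In siLTBP2 the order was different: *GSDME* was the highest at 28.6 ± 0.98 TPM, and *NINJ1*, at 15.9 ± 1.74 TPM, and *GSDMD*, at 14.1 ± 2.96 TPM, overlapped. Within single libraries, *NINJ1* was between 3.03 and 3.48 times *GSDME* in siNT and between 0.53 and 0.61 times *GSDME* in siLTBP2. The ratio of *GSDME* to *GSDMD* was between 1.15 and 1.68 in siNT and between 1.79 and 2.69 in siLTBP2, with no overlap, whereas that of *GSDMD* to *GSDMB* overlapped, from 14.3 to 21.3 in siNT and from 9.70 to 15.2 in siLTBP2. Groups without overlap were common, as 18.7% of all genes tested lay higher and 18.3% lower in siLTBP2 in this way. No such share was computed for ratios, so nothing is read from the gap in that of *GSDME* to *GSDMD*. With the longest transcript of each gene in place of the union of exons, the ratio of the *NINJ1* and *GSDME* means was 2.04 in siNT and 0.35 in siLTBP2.

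**Figure D2:**
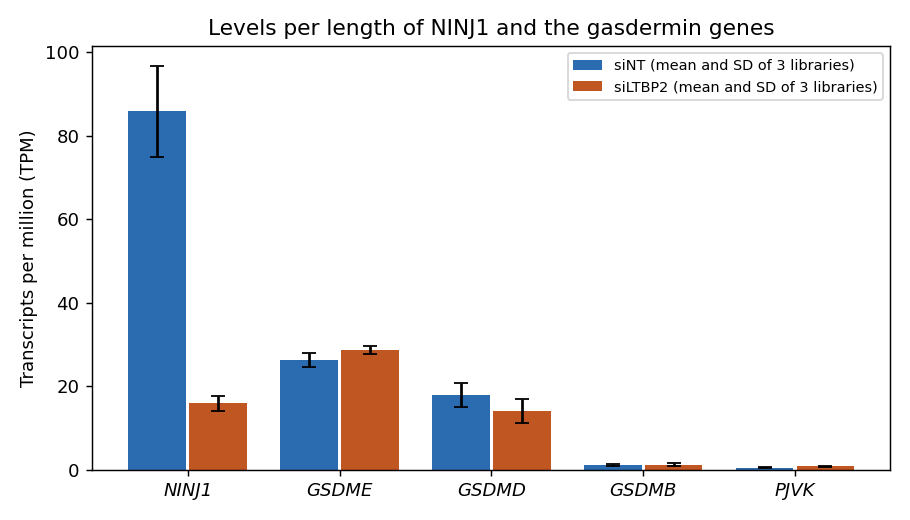
Mean TPM of *NINJ1* and 4 gasdermin genes in siNT (blue) and siLTBP2 (orange), with the SD of 3 libraries as error bars. *NINJ1* stands at 85.8 TPM in siNT and at 15.9 TPM in siLTBP2, below *GSDME* at 28.6 TPM.

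The other gasdermin genes were low. *PJVK*, which encodes the gasdermin-related protein pejvakin needed for hearing, was the only one of 3 to be tested. It was at 0.562, 0.831 and 0.408 CPM in siNT and at 1.10, 0.909 and 0.930 CPM in siLTBP2, with no overlap between the groups, and its log2 fold change was 0.71 (SE 0.29, adjusted p = 0.12). Of all genes tested, 18.7% lay higher in siLTBP2 with no overlap. *GSDMA*, a gasdermin of skin, had 0, 1 and 0 counts in siNT and 3, 4 and 2 in siLTBP2, and *GSDMC* had 2, 1 and 1 counts in siNT and 0 in every siLTBP2 library. Neither passed the low-count filter.

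The lists of genes of lytic cell death and membrane repair held 80 genes, of which 61 were tested. Among these 61, 9 rose and 4 fell, or 21.3%, where 19.3% of all genes tested changed, 9.76% upward and 9.51% downward, so that the share changed was near that of all genes. The median log2 fold change of the 61 was 0.06 and that of all genes was -0.01.

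Of 10 proteases that cut gasdermins, 5 were tested, 3 rose and none fell at that threshold, and the median log2 fold change was 0.39. *CASP4*, which senses intracellular lipopolysaccharide and cuts GSDMD, rose from 78.2 ± 10.7 to 106 ± 8.03 CPM (SD, n = 3; log2 fold change 0.44, adjusted p = 0.017). *CASP8*, the initiator caspase of death receptors, rose from 25.4 ± 1.88 to 33.3 ± 1.82 CPM (SD, n = 3; log2 fold change 0.39, adjusted p = 0.017). Both lost their call with 1 library left out: *CASP4* without siNT replicate 1 or 2 (adjusted p from 0.058 to 0.060), and *CASP8* without siNT replicate 1 or 3 or siLTBP2 replicate 1 or 2 (from 0.059 to 0.075). *CASP1*, the inflammasome caspase, had a log2 fold change of -0.23 (adjusted p = 0.12). *CASP5* and the genes of granzymes A and B had at most 4 counts in any library, and those of the neutrophil proteases, *ELANE* and *CTSG*, were untested and high in siLTBP2 replicate 2 alone.

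Of 12 inflammasome sensors, adaptors and regulators, 6 were tested and none passed at an adjusted p below 0.05. *DPP9*, *NEK7* and *DPP8* were the most abundant, with log2 fold changes of -0.04, 0.03 and 0.09, and *NLRP1*, whose sensor protein DPP8 and DPP9 hold inactive, had one of -0.38 (SE 0.17, adjusted p = 0.15). *NLRP3*, *NLRC4*, *AIM2*, *MEFV*, *NAIP* and *NLRP6* did not pass the low-count filter. None of the 5 tested genes of a list of the IL-1 family, its inhibitors and *HMGB1* passed either. *HMGB1*, a nuclear protein that leaks from ruptured cells, had a log2 fold change of 0.01 (SE 0.11), *IL1B* one of -0.43 (SE 0.22, adjusted p = 0.20) and *IL33* one of -1.40 (SE 0.48, adjusted p = 0.067) from at most 42 counts in a library. The call of *IL33* depended on the setting, as it was changed in 4 of the 14 alternatives. These were the study's likelihood ratio test, no low-count filter, the replicate block and the fit without siLTBP2 replicate 2. The 3 tested acyltransferase genes, whose enzymes attach palmitate to gasdermins, did not pass, with log2 fold changes from -0.27 to 0.00.

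Membrane repair opposes gasdermin pores, as ESCRT-III proteins bud off damaged membrane and annexins seal it. Of 25 such genes, 24 were tested, 4 rose and 2 fell. *ANXA1* was at 185, 283 and 204 CPM in siNT and at 439, 469 and 513 CPM in siLTBP2, with no overlap and a log2 fold change of 1.08 (SE 0.15, adjusted p = 7.4e-04), and it was deregulated. *ANXA5* rose from 643 ± 12.7 to 943 ± 12.8 CPM (SD, n = 3; adjusted p = 0.0018). *ANXA2* had a log2 fold change of 0.49 (adjusted p = 0.011), and *DYSF*, which encodes the muscle repair protein dysferlin, one of 1.31 (adjusted p = 0.015) from only 32 counts over the siNT and 77 over the siLTBP2 libraries. *ANXA2* and *DYSF* lost their call without siNT replicate 3 or siLTBP2 replicate 2, with an adjusted p from 0.050 to 0.058 for *ANXA2* and of 0.058 for *DYSF*. *CHMP3*, an ESCRT-III subunit, was at 72.3, 77.6 and 72.3 CPM in siNT and at 39.6, 48.2 and 39.4 CPM in siLTBP2, with a log2 fold change of -0.81 (SE 0.10, adjusted p = 4.1e-04). Among the 4 list genes that fell, *CHMP3* alone carried GCACCCA in its 3′ UTR. In all, 4 of the 61 tested list genes carried it, and the others, *DPP9*, *RIPK1* and *CFLAR*, were not called changed. *CHMP6* had a log2 fold change of -0.40 (adjusted p = 0.027) and lost its call without siNT replicate 1 or 3 or siLTBP2 replicate 1 or 2 (adjusted p from 0.051 to 0.11). The other 18 tested genes did not pass, among them *CHMP4B*, the subunit that forms the main filament, with a log2 fold change of 0.13 (adjusted p = 0.33).

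The lists also covered other lytic deaths, necroptosis and ferroptosis. Of 8 necroptosis genes, 6 were tested and 2 rose. *MLKL*, the pore-forming executioner, rose from 13.2 ± 1.02 to 17.5 ± 1.93 CPM (SD, n = 3; log2 fold change 0.41, adjusted p = 0.037), and *FADD*, an adaptor of death receptors, had a log2 fold change of 0.52 (adjusted p = 0.016). *RIPK3*, the kinase that activates MLKL, and *ZBP1* had 0 counts in all 6 libraries. *MLKL* lost its call with total counts in place of TMM and without any 1 library other than siLTBP2 replicate 2 (adjusted p from 0.051 to 0.12). *FADD* lost it without siNT replicate 1 or 2 or siLTBP2 replicate 2 (0.050 to 0.067). Of 11 ferroptosis genes, all tested, 2 fell. *GPX4*, the enzyme that removes lipid peroxides, was at 105, 121 and 127 CPM in siNT and at 56.5, 61.5 and 59.6 CPM in siLTBP2, with a log2 fold change of -0.99 (SE 0.09, adjusted p = 9.9e-05). *HMOX1*, the stress enzyme that breaks down heme, had a log2 fold change of -1.03 (SE 0.19, adjusted p = 0.0039) and was deregulated. Both were called changed in all 14 alternatives. There the log2 fold change of *HMOX1* ran from -1.23 to -0.87 with an adjusted p up to 0.022, so it was not deregulated in each of them. The abundant ferritin genes did not pass, with log2 fold changes of 0.12 (*FTL*) and -0.32 (*FTH1*, adjusted p = 0.12).

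**Figure D3:**
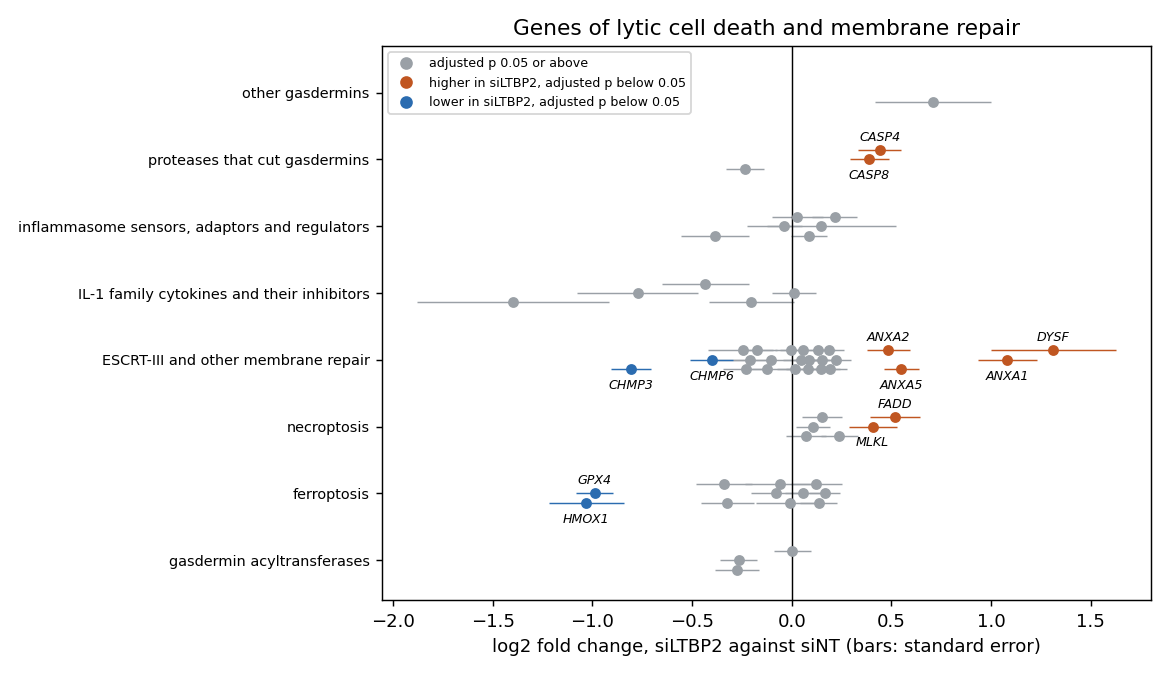
Log2 fold change, siLTBP2 against siNT, of 59 of the 61 tested genes of 8 lists, 1 point per gene with its standard error. The genes that rose (8, orange) and fell (4, blue) at an adjusted p below 0.05 are named, and the points of *ANXA1*, *GPX4* and *HMOX1* lie farthest from 0 among the genes drawn whose call held in all 14 alternatives.

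The tested neighbour of *NINJ1* differed far less between the groups. Of the genes in the table that start within 250 kb of its start site, 1 was tested, *CARD19*, 38034 bases downstream in the direction of *NINJ1* transcription, with means of 27.7 ± 3.99 CPM (siNT) and 26.1 ± 3.23 CPM (siLTBP2; SD, n = 3) and a log2 fold change of -0.09 (SE 0.13, adjusted p = 0.69). Around all 5 genes, 33 genes were tested, of which 5 fell, none rose at that threshold and none was deregulated, where 9.51% of all genes tested fell and 9.76% rose. The 5 were *MROH6* (log2 fold change -0.81) and *NAPRT* (-0.65) near *GSDMD*, and *THRA* (-0.43), *MIEN1* (-0.43) and *PGAP3* (-0.41) near *GSDMB*. *ORMDL3*, which starts 7747 bases upstream of *GSDMB*, had a log2 fold change of 0.06 (SE 0.09).

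**Figure D4:**
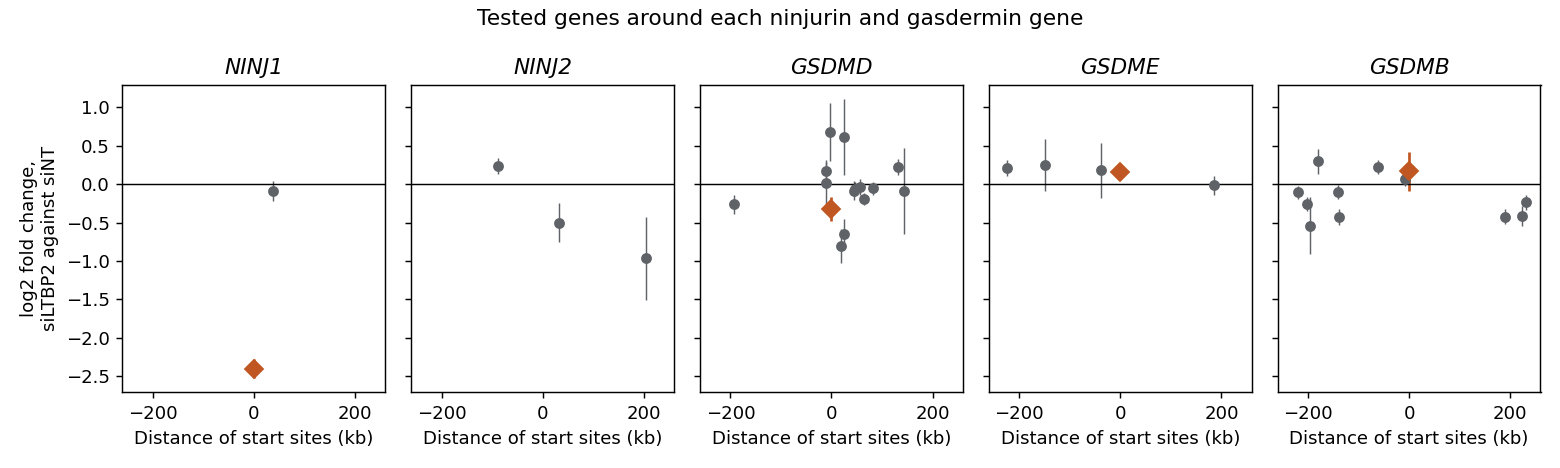
Log2 fold change, siLTBP2 against siNT, of tested genes (grey, with standard errors) by the distance of their start site from that of each ninjurin or gasdermin gene, in kb along its direction of transcription. The gene itself is the orange diamond at 0 where it was tested, and *NINJ1* at -2.40 lies apart from *CARD19* at -0.09.

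The genes whose profile was most like that of *NINJ1* were taken by the root mean square difference over the 6 libraries between log2 CPM values, each centred on the gene's own mean. The closest was *PPT1*, a lysosomal enzyme that removes palmitate from proteins, with a difference of 0.08. It was at 184, 152 and 182 CPM in siNT and at 31.3, 40.9 and 37.4 CPM in siLTBP2, so that, as in *NINJ1*, siNT replicate 2 was the lowest control and siLTBP2 replicate 1 the lowest silenced library. *DPP4-DT* (0.21), *IL16* (0.23), ENSG00000250049 (0.25) and *PEPD* (0.27) followed. A profile like that of *NINJ1* has to be lower in siLTBP2, so the direction of these genes is no result. They were chosen for their likeness over the same 6 libraries, so the match of single libraries is no result either. *DPP4-DT* and *IL16* overlap tested genes on the other strand, *DPP4* and *STARD5*, and their counts are uncertain. In the 3′ UTR, *PPT1* held 2 copies of the word GCACCCA and *PEPD*, a dipeptidase that splits off proline, held 1, while *IL16* held none. Of all tested genes with a 3′ UTR, 11.8% carried the word. Both the word and these genes were taken from this same comparison, so their copies are no independent result.

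**Figure D5:**
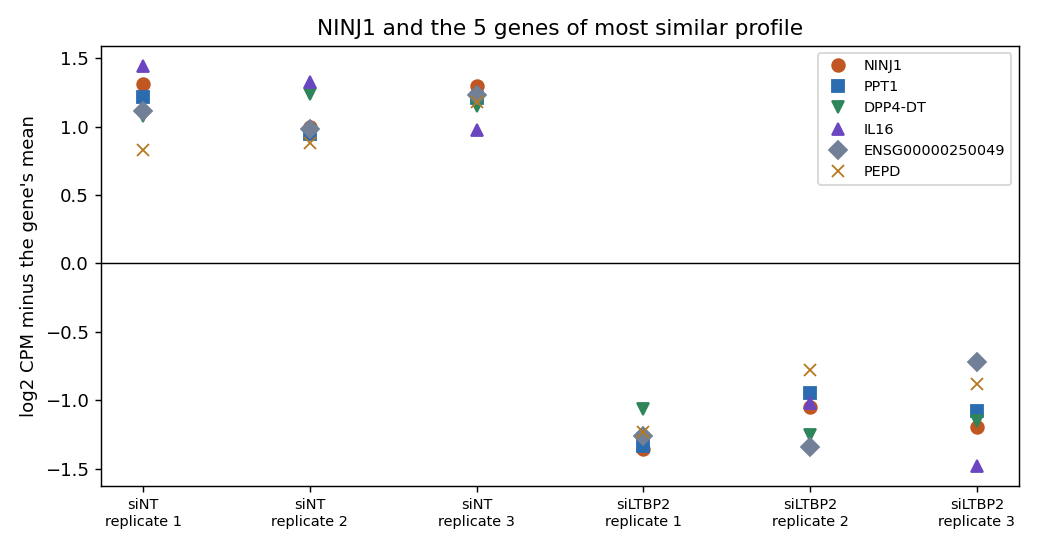
Log2 CPM minus the gene's own mean in each library, for *NINJ1* and the 5 genes of most similar profile. All 6 genes lie above 0 in the 3 siNT libraries and below 0 in the 3 siLTBP2 libraries, and *PPT1* follows *NINJ1* with a root mean square difference of 0.08.

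Some markers of other cell types were detected, and some moved with the groups. The 8 leukocyte markers summed to between 0.79 and 1.19 CPM in siNT and between 1.65 and 1.95 CPM in siLTBP2, and *CSF1R* (0.696 and 1.32 CPM, adjusted p = 0.030) was the changed gene. Of the glial markers, *S100B* and *SOX10* had 0 counts in every library. The 6 epithelial markers summed to between 40.2 and 52.6 CPM in siNT and between 85.6 and 99.3 CPM in siLTBP2. *KRT18* rose from 36.4 to 80.8 CPM (adjusted p = 2.4e-04), and *EPCAM* and *CDH1* had at most 2 counts in any library. The 5 endothelial markers showed no changed gene and summed to between 67.4 and 83.6 CPM in siNT and between 59.9 and 74.3 CPM in siLTBP2, nearly all of it *TEK*, at 74.2 and 68.0 CPM. *CDH5* and *KDR* had at most 2 counts in any library. The part of these markers in the values above was not tested.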

How the data were processed

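RNA sequencing of 6 CCD18Co libraries was used. Libraries were stranded, from total RNA after Ribo-Zero depletion. The authors mapped the read pairs to GRCh38 with STAR, counted them per gene with HTSeq and deposited these counts without normalization. The submitters' processing notes name STAR 2.7.1a and HTSeq 0.11.2. How HTSeq treated strand and which Ensembl release was used is not given in the sources used here. Of 60663 gene identifiers, 60462 are in GENCODE 44, which gave lengths, positions and transcripts. No amino acid sequences were used here.

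Counts were filtered with filterByExpr, scaled by TMM and tested with edgeR 4.0.16 in R 4.3.3 (glmQLFit and glmQLFTest, two-sided, no block). The study's likelihood ratio test and DESeq2 1.42.0 were among the 14 alternatives, with other scalings and filters, the replicate block and leaving out each library. SE was taken as the absolute log2 fold change over the root of the F value. In simulated counts for siLTBP2 against siNT, 16628 genes were run. The test called 87.4% of the 95 genes changed by 1.5 on the log2 scale and 100% of the 97 changed by 2.4. Of its calls, 5.26% were false. Changes smaller than 1.5 were not simulated.

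The genes and lists were chosen with earlier results of these data known. By rule, the text named the 5 genes, changed genes of the lists, up to 4 of the most abundant unchanged genes per list, deregulated neighbours, *LTBP2* and the 5 genes most like *NINJ1*. Other neighbours and list genes, and the markers named, were picked after their values were seen. Replicate counts within a group differed beyond sampling noise (chi-square per degree of freedom from 24.6 to 48.1). Some genes of the lists are counted in the totals but are not reported here by name.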

Additional observations from a re-analysis of the deposited data

How the results depend on the processing

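The log2 fold change of *NINJ1* stayed between -2.44 and -2.40 under the 8 other tests, scalings, filters and the replicate block, and between -2.50 and -2.33 with 1 library left out. With 1 library left out, that of *GSDMD* lay between -0.44 and -0.17, that of *GSDME* between 0.10 and 0.20, and that of *GSDMB* between -0.05 and 0.37. No fold change could be given for *NINJ2*. The numbers 1 to 3 were not taken to pair the libraries, since deviations from the group means had correlations of 0.30, 0.08 and 0.43 within a number, 1 of them below 0.1. Between numbers they ran from -0.39 to 0.10, and siNT replicate 2 correlated best with siLTBP2 replicate 1. With the replicate block, 16 list genes were higher and 14 lower, 6131 genes changed in all, and *GSDMD* was called changed (log2 fold change -0.33). With no low-count filter 9 list genes were lower. With 1 library left out, between 5 and 8 list genes were higher, between 3 and 7 lower, and between 2158 and 2781 genes changed in all, against 3261. The higher genes fell to 5 when siNT replicate 1 or 3 or siLTBP2 replicate 2 was dropped, the lower rose to 7 without siNT replicate 2, and the fewest genes in all were without siLTBP2 replicate 2. The causes were not tested. Of the 13 changed list genes, 6 kept the call in all 14 alternatives, and 17 others gained it in at least 1. Depth limits *NINJ2*, *GSDMA*, *GSDMC*, *GSDMB* and *DYSF*.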
